A study of Mus musculus with 2 samples.

Results

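The adipose lipases and their cofactors are 10 genes chosen by name: *Pnpla2*, *Lipe*, *Mgll*, *Abhd5*, *G0s2*, *Lpl*, *Pnpla3*, *Pnpla8*, *Ces1d* and *Ces1f*. They were read on 2 Affymetrix mouse genome arrays, and all 10 were among the 18193 genes that had a probe set of their own. The PeriA Tg array held perigonadal WAT RNA of female mice on a C57BL/6 background that carried, heterozygously, a human PeriA transgene driven by the aP2 promoter/enhancer. The WT array held the same tissue from female littermates lacking the transgene. Mice of both genotypes were 30 weeks old, had received the HFD (60% of calories from fat) for 25 weeks and had been fasted overnight before harvest. RNA of 3 mice per genotype was pooled for 1 array, so that replicates are lacking, values come without an error over animals, and none of the differences could be tested. aP2 is the fatty acid-binding protein encoded by *Fabp4*, which is made in adipocytes and also in macrophages. The probe sets of perilipin were not listed in the annotation, so that overexpression was not checked on the arrays.

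Triglyceride stored in the adipocyte lipid droplet is broken down in steps. Adipose triglyceride lipase, encoded by *Pnpla2*, removes the first fatty acid, hormone-sensitive lipase, encoded by *Lipe*, acts mainly on the diglyceride, and monoglyceride lipase, encoded by *Mgll*, releases glycerol. Perilipin on the droplet surface holds back the coactivator *Abhd5* until protein kinase A phosphorylates perilipin, and *Lpl*, which acts outside the adipocyte on the capillary wall, supplies fatty acids from circulating lipoproteins. The arrays show the mRNA of these proteins and not their activity, which is regulated largely by phosphorylation and by binding partners.

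The deposited signal gives the brightness of a probe set on a linear scale after each array was scaled as a whole. The signal log ratio is log2 (Signal of Tg/Signal of WT), so that a value over 0 means a brighter signal in Tg WAT. A probe set passed the signal filter when its brighter signal reached 98.2, which was the median signal of the 2 arrays together. A gene was represented by its probe set with the highest mean log2 signal, and 0.3 and -0.3 are the thresholds of the study's methods. The median signal was 95.4 on the Tg array and 101.1 on the WT array, and 7 reference genes lay between -0.14 and 0.21 in signal log ratio. Of the 10 mature adipocyte markers with a probe set of their own, a list that includes *Lipe* and *Lpl*, all passed the filter. Their signal log ratios had a median of 0.09 and ran from -0.64 (*Lep*) to 0.57 (*Pparg*). Because probes differ in their response, signals of different probe sets are no measure of which gene has more mRNA. The summed signals of marker lists given below therefore weigh each marker by the brightness of its probe set.

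The carboxylesterases *Ces1d* and *Ces1f* had signals about 2 times as bright in Tg WAT as in WT WAT, and *Lipe* had a ratio of 1.44. The other 7 genes, among them *Pnpla2*, its coactivator *Abhd5*, its inhibitor *G0s2* and *Lpl*, lay between -0.3 and 0.3. All 10 genes passed the signal filter, with 3 over 0.3 and 0 under -0.3. Of all 11587 genes that passed, 16.6% were over 0.3 and 16.9% were under -0.3. Among the 6019 of these with a mean log2 signal no lower than that of the dimmest of the 10 genes, *Pnpla3*, 13.2% were over 0.3 and 9.75% were under -0.3. Read against these shares, 3 of 10 is no result about the genes as a group. The median signal log ratio of the 10 genes was 0.19, beside 0.02 for all genes that passed and 0.04 for those as bright as *Pnpla3*. In whole tissue, fewer cells of a type and less RNA per cell cannot be told apart.

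**Figure D1:**
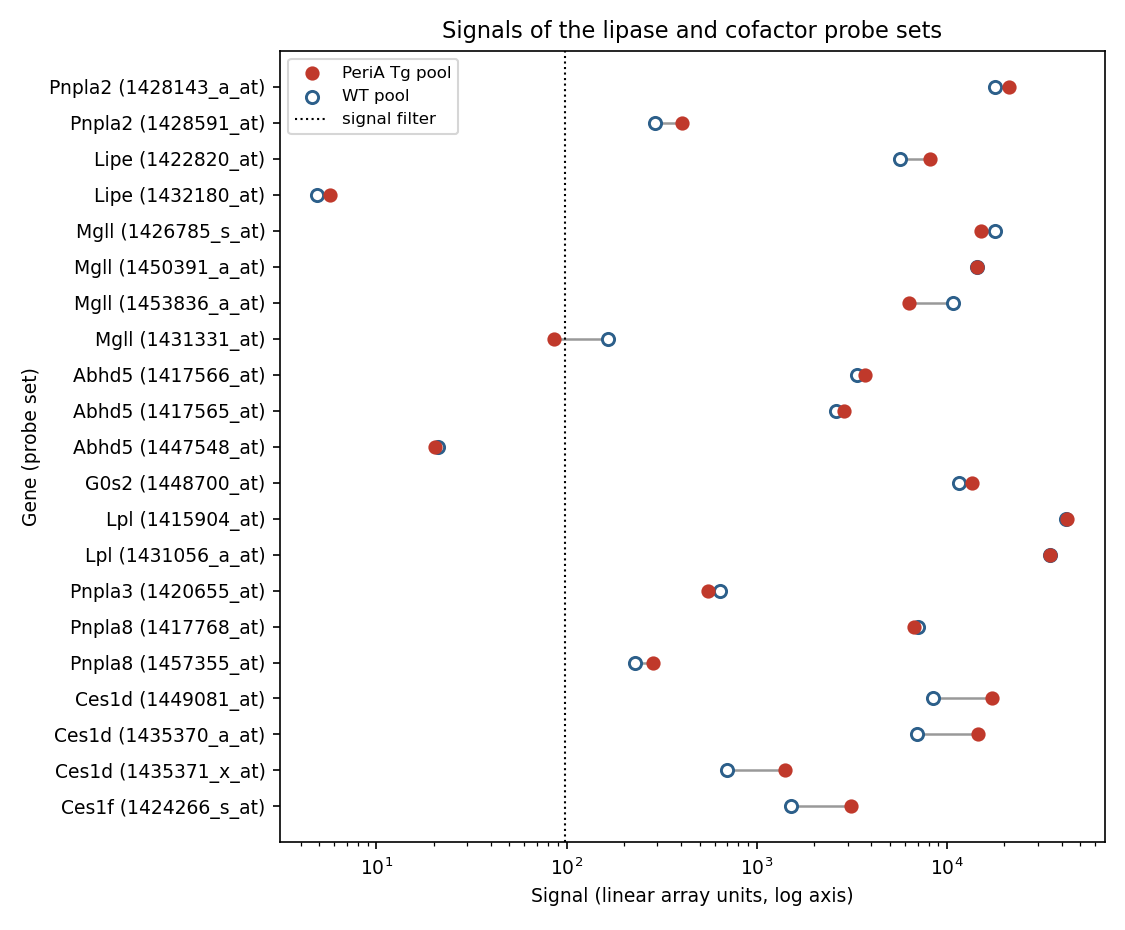
Signals of the 21 probe sets of the 10 lipase and cofactor genes on the PeriA Tg array (filled points) and the WT array (open points), 1 array of pooled RNA per genotype, on a log axis; the dotted line is the signal filter at 98.2. The 4 probe sets of *Ces1d* and *Ces1f* had Tg signals at least 2.02 times their WT signals, and the points of *Lpl* and of 1 *Mgll* probe set lie on top of each other.

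The 10 genes had 21 probe sets annotated to their symbol alone, and 19 of these passed the filter, 7 of them over 0.3, 2 under -0.3 and 10 between. Over all 23713 probe sets that passed, 17.8% were over 0.3 and 21.5% were under -0.3. *Ces1d* alone contributed 3 of the 7. Probe sets of a gene are readings of the same RNA pools and not replicates. Among the 6 genes read by 2 or more passing probe sets, *Abhd5*, *Lpl* and *Ces1d* had probe sets that differed by at most 0.06 on the log2 scale, whereas those of *Pnpla2* differed by 0.22, those of *Pnpla8* by 0.36 and those of *Mgll* by 0.94. For the 5260 genes of the arrays that had 2 or more such probe sets, the median of this difference was 0.40.

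**Figure D2:**
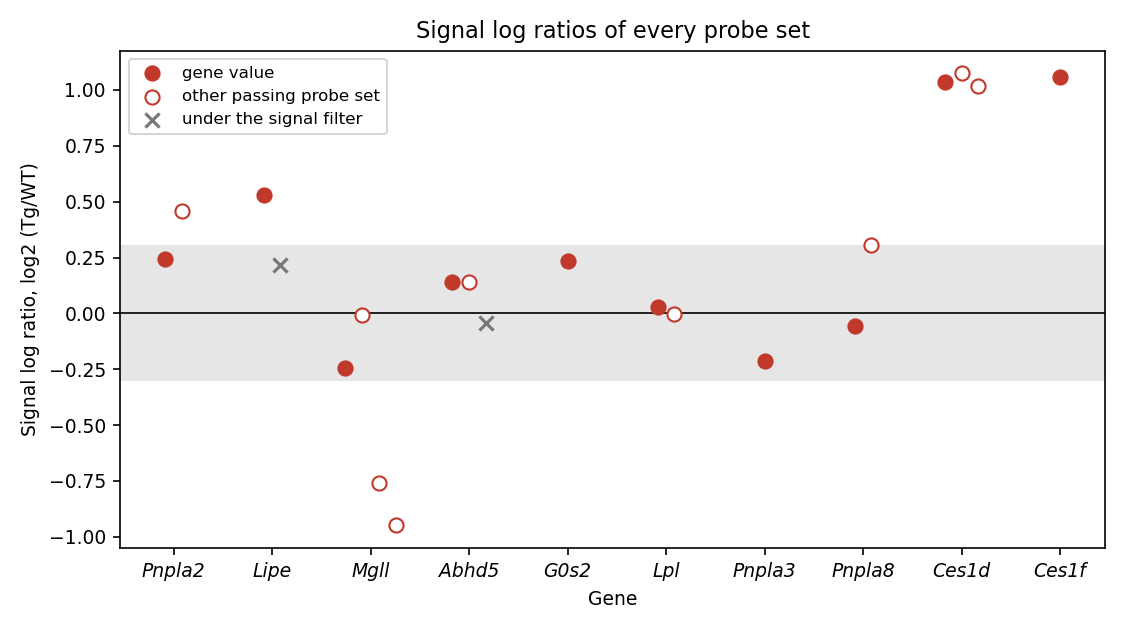
Signal log ratio, log2 (Tg/WT), of every probe set of the 10 genes, in order of mean signal from left to right within a gene; filled points are the gene values, open points are other probe sets that passed the filter, and crosses are probe sets under it. The grey band covers -0.3 to 0.3. The 4 probe sets of *Ces1d* and *Ces1f* lie above 1, and the 4 probe sets of *Mgll* spread from -0.01 to -0.95.

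The first step of lipolysis was read from *Pnpla2*, *Abhd5* and *G0s2*. For *Pnpla2*, probe set 1428143_a_at had a signal of 21080 in Tg and 17795 in WT, a signal log ratio of 0.24. Its dimmer probe set, 1428591_at, had 402.6 in Tg and 292.7 in WT (0.46), so that both were brighter in Tg WAT and only the dimmer one was past 0.3. *Abhd5*, also called CGI-58, encodes the protein that activates adipose triglyceride lipase. Its probe sets had 3720 in Tg and 3375 in WT for 1417566_at, and 2857 in Tg and 2595 in WT for 1417565_at, both at 0.14. The third probe set of *Abhd5*, 1447548_at, was under the filter on both arrays, with 20.4 in Tg and 21.0 in WT. *G0s2* encodes a small protein that binds adipose triglyceride lipase and inhibits it. It had a signal of 13535 in Tg and 11490 in WT on its only probe set, 1448700_at. Its signal log ratio of 0.24 was nearly that of *Pnpla2*, so that the enzyme and its inhibitor differed between the arrays by about the same amount, both under the threshold.

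Hormone-sensitive lipase had the highest signal log ratio among the 3 enzymes of the lipolytic chain. *Lipe* had a signal of 8123 in Tg and 5629 in WT on probe set 1422820_at, a signal log ratio of 0.53. Of all genes that passed the filter, 94.4% had a lower one. The other *Lipe* probe set, 1432180_at, gave 5.70 in Tg and 4.90 in WT, far under the filter, so that the value of *Lipe* rests on 1 probe set.

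The gene value of *Mgll*, which encodes monoglyceride lipase, was -0.25, from 15030 in Tg and 17814 in WT on 1426785_s_at, whose ending marks probes that can match more than 1 transcript. The next probe set by signal, 1450391_a_at, had 14320 in Tg and 14401 in WT (-0.01), and the one after it, 1453836_a_at, had 6319 in Tg and 10687 in WT (-0.76). None of the 4 was brighter in Tg WAT, but they did not give 1 value for the gene. The dimmest, 1431331_at, had 85.4 in Tg and 164.8 in WT (-0.95). It passed the filter through the WT array alone, so that its ratio had to be under 0. Of the 509 genes with 4 passing probe sets, 25.7% had a spread at least as wide as that of *Mgll*, and their median spread was 0.68. Beside this stands a difference between the arrays: for all 8 pairs of probe sets for 4 bacterial poly-A control RNAs, which are labelled together with the sample, the 5' probe set had a lower signal log ratio than the 3' one, with a median difference of -0.55. For 8 pairs of hybridisation controls, added after labelling, the median was -0.01. Where the *Mgll* probes lie along the transcripts was not analysed here. The part of this difference in the *Mgll* values, or in those of other genes whose probe sets disagree, was not tested.

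Promoter sequences of the lipolytic genes are given here for *Lipe*, the enzyme of the chain past 0.3, and for *Pnpla2* and *G0s2*, the enzyme and inhibitor with nearly equal ratios. The windows come from RefSeq on GRCm38.p6 and run from 250 bases before to 50 bases after a start site. By symbol, 7 of the 10 genes were matched, with 9 windows in all. *Lpl*, *Ces1d* and *Ces1f* were not matched. Capitals mark matches, on either strand, to the GC box GGGCGG, the nuclear receptor half-site AGGTCA, the CCAAT box CCAAT or the TATA box TATAAA. Each sequence reads 5′ to 3′ on the strand of the gene.
Lipe, chr7:25395938-25396237, minus strand: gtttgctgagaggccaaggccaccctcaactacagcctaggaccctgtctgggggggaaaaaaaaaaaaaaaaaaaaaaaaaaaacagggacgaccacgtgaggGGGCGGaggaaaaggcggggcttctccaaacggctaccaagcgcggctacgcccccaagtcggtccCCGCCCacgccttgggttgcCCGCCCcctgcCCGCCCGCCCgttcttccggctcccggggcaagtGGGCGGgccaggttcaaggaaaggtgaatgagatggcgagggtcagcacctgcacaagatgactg
Lipe, chr7:25390063-25390362, minus strand: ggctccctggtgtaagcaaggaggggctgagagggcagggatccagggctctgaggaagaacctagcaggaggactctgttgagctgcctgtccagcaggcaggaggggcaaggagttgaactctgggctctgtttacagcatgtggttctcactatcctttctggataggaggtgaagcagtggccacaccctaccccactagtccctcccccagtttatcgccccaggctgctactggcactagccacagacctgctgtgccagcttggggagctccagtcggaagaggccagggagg
Pnpla2, chr7:141454938-141455237, plus strand: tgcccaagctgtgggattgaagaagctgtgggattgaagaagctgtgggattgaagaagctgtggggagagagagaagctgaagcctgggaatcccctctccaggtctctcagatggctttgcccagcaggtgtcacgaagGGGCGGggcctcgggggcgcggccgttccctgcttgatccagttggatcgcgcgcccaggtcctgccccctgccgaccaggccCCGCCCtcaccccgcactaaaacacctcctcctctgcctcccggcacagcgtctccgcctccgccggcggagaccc
G0s2, chr1:193273139-193273438, minus strand: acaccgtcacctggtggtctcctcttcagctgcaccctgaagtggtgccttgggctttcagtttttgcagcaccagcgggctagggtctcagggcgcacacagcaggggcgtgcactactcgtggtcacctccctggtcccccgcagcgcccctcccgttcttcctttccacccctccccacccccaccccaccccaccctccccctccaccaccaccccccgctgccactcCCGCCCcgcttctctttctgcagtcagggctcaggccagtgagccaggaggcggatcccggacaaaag
The upstream *Lipe* window held 6 matches to the GC box, with 2 of them overlapping, and the downstream *Lipe* window held none of the 4 motifs. The *Pnpla2* window held 2 GC boxes and the *G0s2* window 1. Of the 9 windows of these genes, 8 held a GC box, 1 an AGGTCA half-site (*Abhd5*), 1 a CCAAT box (*Pnpla3*) and 0 a TATA box. Of all 32851 windows of this length, 35.7% held a GC box, 16.3% a half-site, 37.4% a CCAAT box and 13.6% a TATA box. Matches are descriptions of these letters, and from which start site the *Lipe* mRNA on the arrays was made was not analysed here.

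*Ces1d*, also known as triacylglycerol hydrolase, is a carboxylesterase of the endoplasmic reticulum in liver and fat that cleaves stored triglyceride. Its 3 probe sets gave nearly the same ratio. Probe set 1449081_at had a signal of 17225 in Tg and 8413 in WT (1.03), 1435370_a_at had 14550 in Tg and 6910 in WT (1.07), and 1435371_x_at had 1406 in Tg and 695 in WT (1.02). *Ces1f*, a close relative, had 3139 in Tg and 1508 in WT on its only probe set, 1424266_s_at, a signal log ratio of 1.06. A value over 1 was found in 1.02% of the 11587 genes and in 0.266% of those as bright as *Pnpla3*.

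The 2 genes belong to a cluster of 8 *Ces1* genes on mouse chromosome 8 in the RefSeq table, in which *Ces1e* lies between them. The endings _s_at and _x_at mark probe sets whose probes can match related transcripts, so that the readings of *Ces1f* and of the dimmest *Ces1d* probe set may include another carboxylesterase, and *Ces1f* is uncertain for this reason. Probe set 1449081_at of *Ces1d* carries no such ending. The other 4 *Ces1* genes with a probe set of their own were under the filter on both arrays: *Ces1h* had 71.0 in Tg and 67.2 in WT, *Ces1e* had 38.6 in Tg and 3.30 in WT, and no signal of *Ces1c* or *Ces1g* exceeded 5.60. Of the 6 *Ces1* genes that could be read, *Ces1d* and *Ces1f* were thus the 2 that passed.

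Because carboxylesterases are abundant in liver, liver markers were read beside them. Of 8 liver markers with a probe set of their own, 6 were under the filter, including *Apoa1*, *Ttr*, *Fga* and *Fgb*, which encode secreted proteins of hepatocytes. *Alb*, albumin, had 1262 in Tg and 888.9 in WT. *Cyp2e1*, a cytochrome P450 that adipocytes also express, had 30241 in Tg and 18170 in WT. The 2 liver markers that passed, *Alb* (0.51) and *Cyp2e1* (0.73), were both over 0.3. Summed over the same 8 markers on either array, the signal was 31651 in Tg and 19244 in WT, most of it from *Cyp2e1*. Brown adipocyte markers were also brighter in Tg WAT: 9 of 11 passed the filter, of which *Elovl3* and *Dio2* passed through the Tg array alone and so had to lie above 0. The 7 at or above the filter on both arrays were all over 0.3. Among all genes that passed on either array, 16.6% were over 0.3, and the share among genes at the filter on both arrays was not computed. Summed over all 11 brown adipocyte markers, whether or not they passed, the signal was 27928 in Tg and 5128 in WT. *Zic1* and *Lhx8*, markers of the interscapular brown depot, were under the filter. The part of brown-like adipocytes in the values of *Ces1d*, *Ces1f* and *Lipe* was not tested.

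The patatin-like genes *Pnpla3* and *Pnpla8* were under 0 on their gene values. *Pnpla3*, a relative of adipose triglyceride lipase that is induced by feeding in mouse fat and liver, had 552.9 in Tg and 641.2 in WT on probe set 1420655_at (-0.21). *Pnpla8*, a calcium-independent phospholipase of mitochondria and peroxisomes, had 6733 in Tg and 7002 in WT on 1417768_at (-0.06). Its dimmer probe set, 1457355_at, had 283.6 in Tg and 229.7 in WT (0.30), just past the threshold on the other side of 0, so that no direction can be given for *Pnpla8*.

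*Lpl* gave nearly equal signals on the arrays. Probe set 1415904_at had 42792 in Tg and 41895 in WT (0.03), and 1431056_a_at had 34610 in Tg and 34685 in WT. These signals stood near the top of the arrays, whose highest were 56988 in Tg and 53205 in WT, and compression of ratios at such signals was not tested. *Lpl* is made by adipocytes and also by macrophages.

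**Figure D3:**
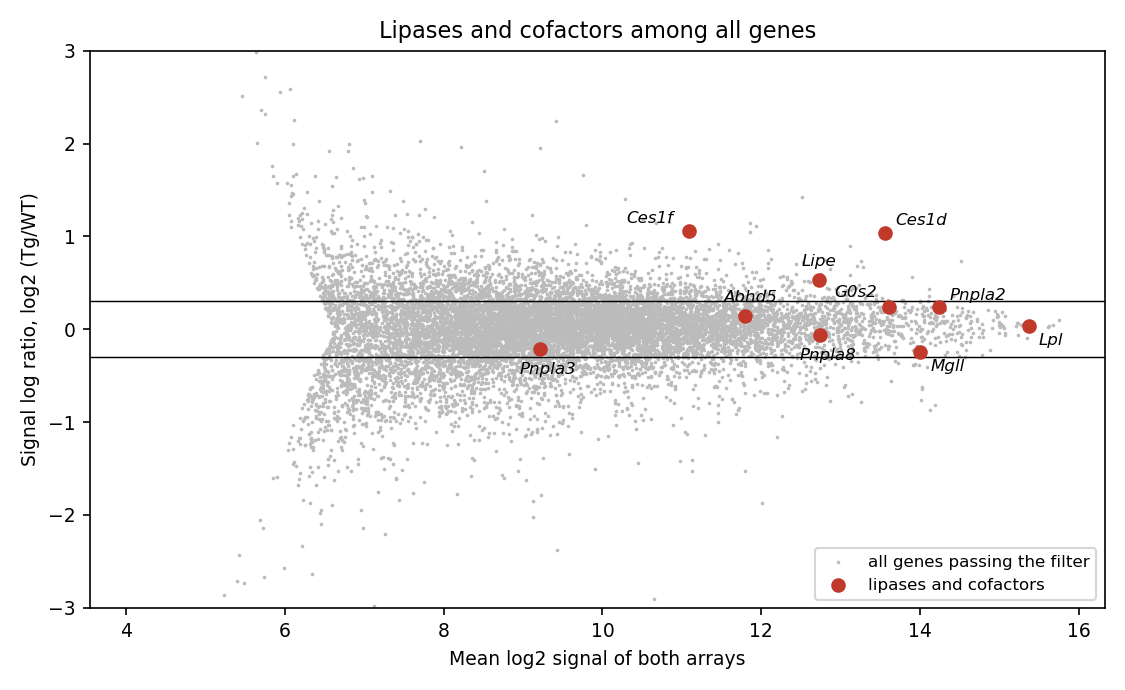
Signal log ratio, log2 (Tg/WT), (vertical axis) and mean log2 signal over the arrays (horizontal axis) of the 11587 genes that passed the filter (grey) and the 10 lipase and cofactor genes (red), with lines at 0.3 and -0.3; 19 genes lie outside the drawn range of -3 to 3. The scatter narrows toward bright signals, and *Ces1d* and *Ces1f* lie above nearly all genes of similar signal.

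Proteins of the lipid droplet that act on these lipases were read next. Of 15 droplet genes, 14 had a probe set of their own and 11 passed the filter, with 4 over 0.3, 1 under -0.3 and 6 between, and a median of 0.06. Of all genes that passed, 16.6% were over 0.3 and 16.9% were under -0.3. The counts of this and the later lists stand beside these shares, and none is taken as a result about a list. *Plin5*, a perilipin of oxidative tissues that binds adipose triglyceride lipase and *Abhd5*, had 1370 in Tg and 724.4 in WT (0.92), and its other probe set had 0.59. *Hilpda*, which encodes an inhibitor of adipose triglyceride lipase, was the gene under -0.3, with 561.8 in Tg and 1048 in WT (-0.90). The *Pnpla2* inhibitors *Hilpda* and *G0s2* therefore stood on opposite sides of 0, with *G0s2* short of the threshold. *Fitm2*, a protein of the endoplasmic reticulum needed for droplet formation, had 4441 in Tg and 2704 in WT (0.72). *Hsd17b11*, a droplet-bound dehydrogenase, had 0.52, and the dimmer of its 2 passing probe sets had -0.08. The fourth gene over 0.3 was *Cidea*, a brown adipocyte marker, with 5272 in Tg and 242.6 in WT (4.44), the highest of the list. *Plin1* was not listed.

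Signals that switch lipolysis on or off were read from 25 genes of cAMP, cGMP and G-protein signalling. Of the 20 with a probe set of their own, 19 passed the filter, with 4 over 0.3, 1 under -0.3 and 14 between, and a median of 0.01. *Pde3b*, the phosphodiesterase through which insulin restrains lipolysis, had 11389 in Tg and 8171 in WT (0.48), and *Pde4d*, another cAMP phosphodiesterase, had 859.1 in Tg and 544.2 in WT (0.66). *Hcar1*, the lactate receptor, had 574.3 in Tg and 390.5 in WT (0.56), and *Hcar2*, the receptor for ketone bodies and niacin, had 437.1 in Tg and 322.4 in WT (0.44). *Gnai2*, *Ptger3* and *Ffar2*, a G protein subunit and a pair of receptors that also lower cAMP, lay within the thresholds at 0.06, -0.06 and -0.13, and their dimmer probe sets had -0.24, -1.59 and 0.20. The gene under -0.3 was *Prkar2a*, a regulatory subunit of protein kinase A, at -0.33. Its other passing probe sets had -0.48 and -1.75, the last of which passed through the WT array alone and so had to lie under 0. *Gnas*, *Prkaca* and *Prkar2b*, which carry the stimulating signal to protein kinase A, had 0.07, 0.01 and -0.02. Their other passing probe sets had 0.46 for *Gnas*, 0.38 for *Prkaca*, and 0.19 and -0.33 for *Prkar2b*. The beta-adrenergic receptor genes were not listed.

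Among 15 genes that act on *Lpl* or on the lipoproteins it cleaves, 13 passed the filter, with 1 over 0.3, 2 under -0.3 and 10 between, and a median of 0.02. *Gpihbp1*, which carries *Lpl* to the capillary wall, had 5731 in Tg and 6695 in WT (-0.22). *Angptl4*, an inhibitor of *Lpl* induced by fasting, had 12473 in Tg and 14252 in WT (-0.19), and *Lmf1*, needed for *Lpl* folding, had 370.7 in Tg and 383.6 in WT (-0.05). These 3 genes, like *Lpl* itself, lay within the thresholds. *Apoc2*, the cofactor that *Lpl* needs on lipoproteins, had 210.2 in Tg and 408.2 in WT (-0.96), and *Vldlr*, a lipoprotein receptor, had -0.40. *Pcsk6*, a protease that cleaves *Lpl*, was over 0.3, with 1465 in Tg and 958.1 in WT (0.61).

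Of 31 other lipases and carboxylesterases, 24 had a probe set of their own and 11 passed the filter, with 2 over 0.3, 4 under -0.3 and 5 between, and a median of 0.16. That median had no settled sign, since it was -0.03 under a stricter filter and -0.23 when probe sets with _a, _s or _x in their names were left out. Under -0.3 were *Daglb* (-1.12), *Abhd12* (-0.62), *Dagla* (-0.55) and *Lipa* (-0.50). *Lipa*, the acid lipase of lysosomes, had 2905 in Tg and 4095 in WT, and its other 2 probe sets had -0.24 and -0.31. *Daglb*, a diglyceride lipase that makes an endocannabinoid, had 372.2 in Tg and 810.7 in WT, and *Abhd12*, a lysophospholipase, had 2244 in Tg and 3460 in WT. The dimmer probe set of *Abhd12* had -1.23. Over 0.3 were *Ddhd2*, a triglyceride lipase best known from brain, with 2793 in Tg and 1630 in WT (0.78), and *Ddhd1*, a phospholipase. The 3 passing probe sets of *Ddhd1* disagreed in sign, with 0.61, -0.36 and 0.33. Of the macrophage markers, which were read beside *Lipa*, all 12 passed the filter, *Marco* through the WT array alone. Of the 11 at or above it on both arrays, 6 were under -0.3 and 0 over 0.3. Among all genes that passed on either array, 16.9% were under -0.3 and 16.6% over 0.3. The shares among genes at or above the filter on both arrays were not computed. The summed signal of the 12 macrophage markers was 39602 in Tg and 50868 in WT. Endothelial markers had a median of -0.08. The part of macrophages in the values of *Lipa*, *Daglb* and *Abhd12* was not tested.

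**Figure D4:**
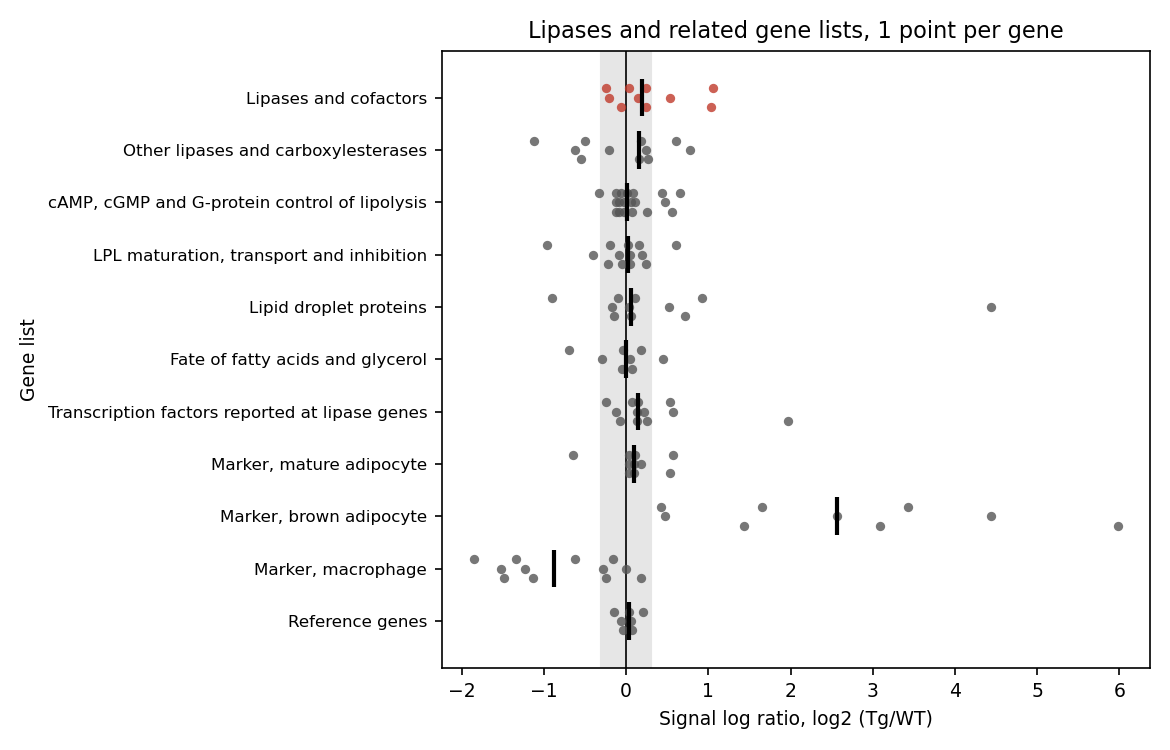
Signal log ratio, log2 (Tg/WT), of genes that passed the filter in the lipase and cofactor list (red), in 6 related lists, in 3 lists of cell type markers and in the reference genes, 1 point per gene; black bars are medians, grey shading spans the thresholds, and height within a row only separates the points. The medians of the lipases and of the 6 related lists lie between 0.00 and 0.19, while the 7 brown adipocyte markers at or above the filter on both arrays lie to the right of the band and 6 of 11 such macrophage markers to its left.

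The products of lipolysis were followed in 10 genes of fatty acid and glycerol handling, of which 8 passed the filter, with 1 over 0.3, 1 under -0.3 and 6 between, and a median of 0.00. *Pck1*, which makes the glycerol backbone for re-esterification in fasted fat, had 8527 in Tg and 6250 in WT (0.45), but its second passing probe set had -0.80. *Gpd1*, which makes glycerol 3-phosphate from a glycolytic intermediate, had 2801 in Tg and 4521 in WT (-0.69), and its other passing probe sets had -1.01 and -0.01. *Aqp7*, the glycerol channel of adipocytes, had 548.0 in Tg and 567.8 in WT (-0.05), but its other probe set had -0.46.

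Of 13 transcription factors known at lipase genes, 12 passed the filter, with 3 over 0.3, 0 under -0.3 and 9 between, and a median of 0.14. *Ppara*, a nuclear receptor of fatty acid oxidation, had 591.0 in Tg and 151.2 in WT (1.97). *Pparg*, the nuclear receptor of fat cell differentiation under which *Pnpla2* and *Lipe* are transcribed, had 6234 in Tg and 4204 in WT (0.57) on its only probe set. *Klf15*, a fasting-induced factor, had 1486 in Tg and 1028 in WT (0.53). *Foxo1*, which activates *Pnpla2* in fasting, had 2424 in Tg and 2208 in WT (0.14), and its other 2 passing probe sets had -0.29 and -0.27. *Irf4*, another fasting-induced activator of *Pnpla2* and *Lipe*, had 121.6 in Tg and 144.4 in WT (-0.25), close to the filter.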

How the data were processed

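RNA of 3 mice per genotype was pooled by the authors and hybridised to 1 array each. The deposited values are linear signal intensity per probe set from GeneChip Operating Software, and MAS5 is named in the submitters' processing notes (its version is not given in the sources used here). This method weighs perfect-match against mismatch probes and scales a whole array: with 2% of signals trimmed at either end, both arrays averaged 500.0. The table holds 45101 probe sets, of which 64 controls were left out, and no detection calls, for which the signal filter of 98.2 stands in.

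Signal log ratios were computed from the deposited intensity values with no further normalization. Symbols came from the platform annotation, which gave 34945 of the 45037 other probe sets 1 symbol, 932 several and 9160 none here; only those with 1 symbol named a gene. Nothing was tested and no p-value is given, since each genotype has 1 array, and genes of like pattern were not sought. The members, gene lists, markers and rule for named genes were chosen with earlier results of these data known. The rule took every member with every probe set, up to 4 genes with the largest values of each related list, and genes acting directly on a member. *Prkar2a*, *Gnas*, *Prkaca*, *Prkar2b*, *Gnai2*, *Ptger3*, *Ffar2*, *Elovl3*, *Dio2*, *Marco*, *Dagla*, *Lipa*, *Hsd17b11*, *Aqp7*, *Foxo1*, *Irf4* and the *Ces1* relatives were named after their values were seen. The markers *Apoa1*, *Ttr*, *Fga*, *Fgb*, *Zic1* and *Lhx8* were also named outside the rule. Fibroblast and mesothelial markers had median signal log ratios of 0.05 and 0.20. Of 5 skeletal muscle markers that passed, 3 did so through the WT array alone, and the other 2 had a median of -0.04.

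Alternatives covered scaling (median centring, quantile normalization, loess at span 0.3), low signals (25.1 added to both signals, or signals raised to 56.9), the filter (none, or 470.5), the probe set of a gene and a 2-fold threshold. The scripts were tested on simulated data. The number of arrays limits the precision. Versions were Python 3.11.15, matplotlib 3.10.9, numpy 2.4.6, statsmodels 0.14.6, scipy 1.17.1 and pandas 2.3.3.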

Additional observations from a re-analysis of the deposited data

How the results depend on the processing

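With no replicates, a list median or gene value was taken as moved when it differed from the reported one by more than 0.41, the pooled SD between passing probe sets of one gene, and a count when it differed by more than 1.5 times. The count of lipase and cofactor genes under -0.3 was 0 as reported and 1 (*Mgll*) both when the probe sets of each gene were summarised by their median and when probe sets with _a, _s or _x in their names were left out, in which case *Mgll* had -0.95. Both moves rest on 1431331_at, which passed the filter through the WT array alone and so had to lie below 0; the median of the 3 *Mgll* probe sets at or above the filter on both arrays was -0.25. The count over 0.3 was 3 as reported, 4 with the median of probe sets, 2 at the 2-fold threshold and 1 without *Ces1d* and *Ces1f*, a setting chosen after seeing the data. On second-brightest probe sets, the median was -0.30 for 6 other lipases (-0.01 with the median of probe sets) and -0.63 for 3 genes acting on *Lpl*, while that of all 5260 genes was -0.03. For 7 genes of fatty acid and glycerol handling it was -0.40, beside 0.00 as reported, just short of the rule for a move. *Ces1d* lay between 0.99 and 1.07, *Ces1f* between 1.04 and 1.06 and *Lipe* between 0.37 and 0.53 over the settings that gave a value. The low end of *Lipe* came from the median of probe sets, which drew on 1432180_at, far under the filter. *Ces1f* has 1 probe set, so every setting read that probe set and its range could not show a dependence on the choice of probe set. *Pnpla2* lay between 0.19 and 0.46 and was over 0.3 in 3 of 11 settings, all of which drew on its dimmer probe set. Under the 3 scalings, *Lpl* lay between -0.03 and 0.03. The causes of these moves were not tested. No paired analysis was possible because the labels give no replicate numbers and each genotype has 1 array.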
